A study of Homo sapiens with 6 samples.

Results

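The nuclear pore proteins were described here as 32 genes, taken by gene name from the 50868 rows of a deposited RNA sequencing table: 14 scaffold genes (9 of the outer ring and 5 of the inner ring), 4 genes of membrane proteins, 4 of the central channel, 3 of the nuclear basket and 7 of the cytoplasmic filaments. The cells were KYSE-150, an established human line from squamous cell carcinoma of the oesophagus. The tested libraries, siZNF514, carried the label of a ZNF514 knockout by siZNF514, and the controls, nc, were called wild type, with 3 libraries each. Both groups shared the line and its medium, no other agent is named, and no label says whether the nc cells were given a control siRNA or whether the libraries of a group were separate cultures. Every p-value therefore measures only how these samples vary, and that variation may be technical. In a bulk sample, fewer cells that carry a transcript and less transcript per cell cannot be told apart.

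The nuclear pore complex is the channel through which proteins and RNA pass between nucleus and cytoplasm. Outer rings of Y-shaped complexes and an inner ring form its scaffold, membrane proteins hold it in the nuclear envelope, and proteins rich in phenylalanine-glycine repeats fill the channel. On the nuclear side the subunits form a basket, and on the cytoplasmic side filaments. Cargo bound to importins or exportins moves through it under the control of the small GTPase RAN, while most mRNA leaves with the exporter NXF1.

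The libraries held 13262363 to 14318909 counts in siZNF514 and 12175259 to 13696180 in nc, and levels are given as CPM, the counts of a gene scaled to the tested library size and a TMM factor (a correction for composition). ZNF514 had 64, 82 and 63 counts in siZNF514 against 239, 273 and 261 in nc. Its log2 fold change was -1.87 (SE 0.14, adjusted p = 5.77e-05 by edgeR's quasi-likelihood F test, with p adjusted over all genes after Benjamini and Hochberg), and an exact permutation test, two-sided, gave p = 0.1, which 6 libraries cannot go below. All 10 squamous epithelial markers had counts, though SOX2 had 0, 1 and 2 in siZNF514 against 3, 0 and 2 in nc. Summed, these markers ranged from 2124 to 2445 CPM in siZNF514 and from 2799 to 3015 CPM in nc. This sum and the other marker sums below were scaled by total counts, with no TMM factor. That scaling places siZNF514 lower against nc than TMM does. By edgeR with TMM the squamous markers were mixed. KRT5 (-0.52), KRT14 (-1.23) and PERP (-0.56) fell, and EPCAM (0.41) and DSP (0.17) rose. KRT17, TP63, SFN and CDH1 did not pass, and SOX2 was not tested. CDH1 had 3761, 7100 and 7125 counts in siZNF514 against 6270, 7763 and 7143 in nc. The part of the difference in squamous markers in the results was not tested. Replicate 3 of siZNF514 stood apart by markers of other cells: COL3A1 had 0, 0 and 112 counts in siZNF514 against 5, 3 and 2 in nc, and LYZ had 0, 0 and 49 against 7, 2 and 5. The 7 fibroblast markers summed to 13.4 to 38.4 CPM in siZNF514 and 12.2 to 14.1 CPM in nc. The 5 immune markers with counts summed to 46.9 to 55.4 and 58.4 to 71.2 CPM, and the 4 endothelial markers to 1.81 to 2.31 and 3.25 to 3.45 CPM, in siZNF514 and nc in that order. Most of the immune sum was CD68, with 622, 694 and 725 counts in siZNF514 against 763, 964 and 694 in nc. It did not pass, and PTPRC, CD3E and CD14 had at most 13 counts in a library. Without replicate 3 of siZNF514, the pore genes gave the same 12 higher and 8 lower counts as with it.

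The pore genes did not move as 1 block. Most inner ring genes rose in siZNF514, the 2 POM121 copies of the membrane group fell, and the outer ring, channel and filament groups held genes that rose beside genes that fell. All 32 genes passed the low-count filter, with at least 333 counts in each library. Of them, 12 rose and 8 fell at an adjusted p under 0.05, while 12 did not pass. The shares were 37.5% higher and 25.0% lower, against 25.5% and 25.1% of all 14250 genes tested. Together 62.5% of the pore genes passed, against 50.6% of all genes and 59.9% of the 5780 genes whose mean level lay in the same range (37.1 to 329 CPM). The share that passed was thus close to that of genes of similar level. The fold changes were small: the median size, regardless of sign, was 0.31 on the log2 scale for the pore genes, 0.35 for all genes and 0.28 for the genes of similar level. A 2-fold change was passed by 1 pore gene, NUP43, and by 9.28% of all genes. In 14 pore genes (43.8%) all siZNF514 libraries lay above all nc libraries, against 30.0% of genes tested and 40.9% of those of similar level. In 8 (25.0%) they lay below, against 30.3% of genes tested and 27.0% of those of similar level.

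**Figure D1:**
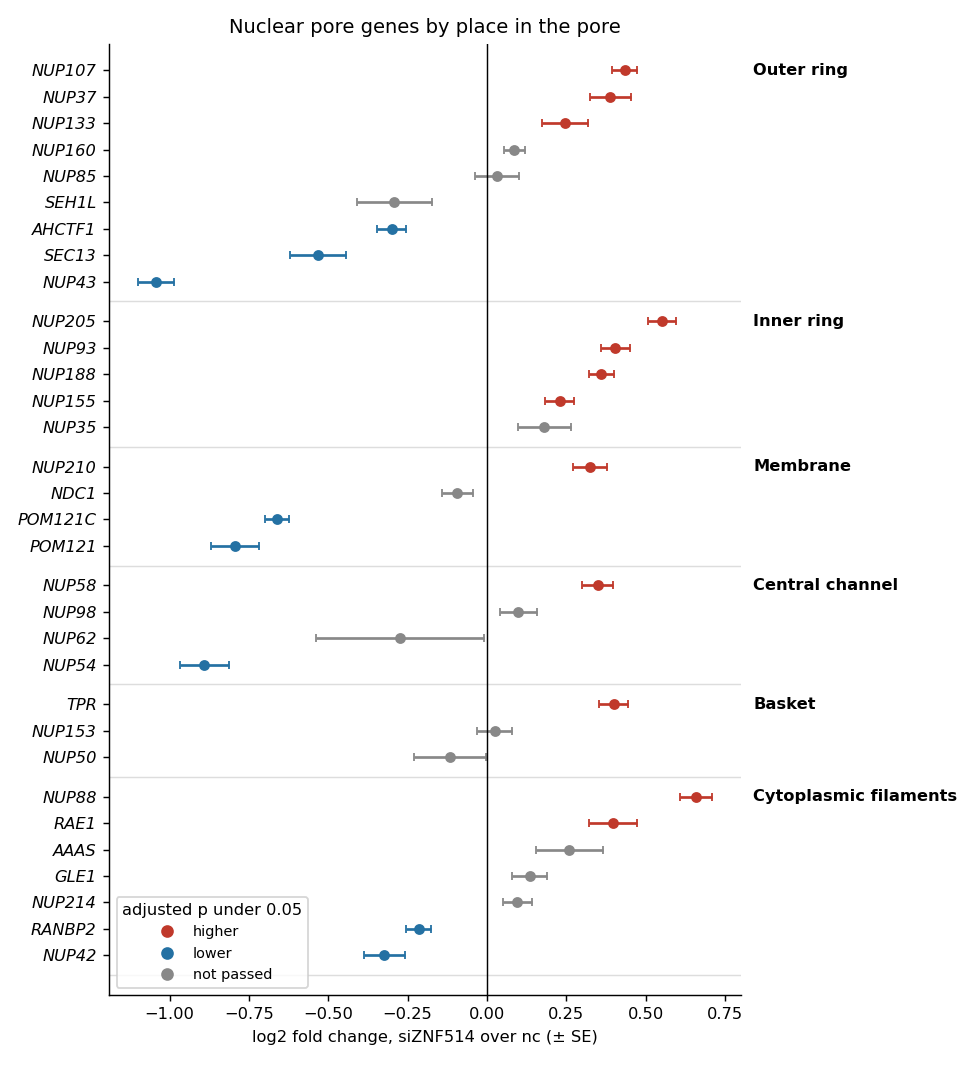
Log2 fold change of each of the 32 genes, siZNF514 over nc, with its SE as a bar, arranged by place in the pore from the outer ring at the top to the cytoplasmic filaments at the bottom; colours mark genes that rose, fell or did not pass. Inner ring genes all lie right of 0, whereas NUP43 at -1.04, NUP54 at -0.89 and POM121 at -0.79 lie farthest left.

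By structure, the median log2 fold change was 0.20 for the scaffold, -0.38 for the membrane group, -0.088 for the central channel, 0.024 for the basket and 0.13 for the cytoplasmic filaments, against -0.0092 for all genes tested. The 2 parts of the scaffold differed in make-up: the inner ring had a median of 0.36 with 4 of 5 genes higher and none lower, and the outer ring 0.031 with 3 higher and 3 lower. These medians describe the members and were not tested. POM121 and POM121C, between which the split of reads is uncertain, made up 2 of the 4 membrane genes. No membrane median was taken with the copies summed. With them as 1 gene that fell, NDC1 (-0.094) would be the middle value, as NUP210 rose. Scaling by total counts in place of TMM moved the median of all genes to -0.14, and the basket median then turned to -0.10, while the scaffold median became 0.078, the filament median 0.0073, the channel median -0.21 and the membrane median -0.50. With AAAS placed among the membrane genes, to which it binds through NDC1, and NUP98 among the filaments, the membrane median was -0.094 and the channel median -0.27.

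**Figure D2:**
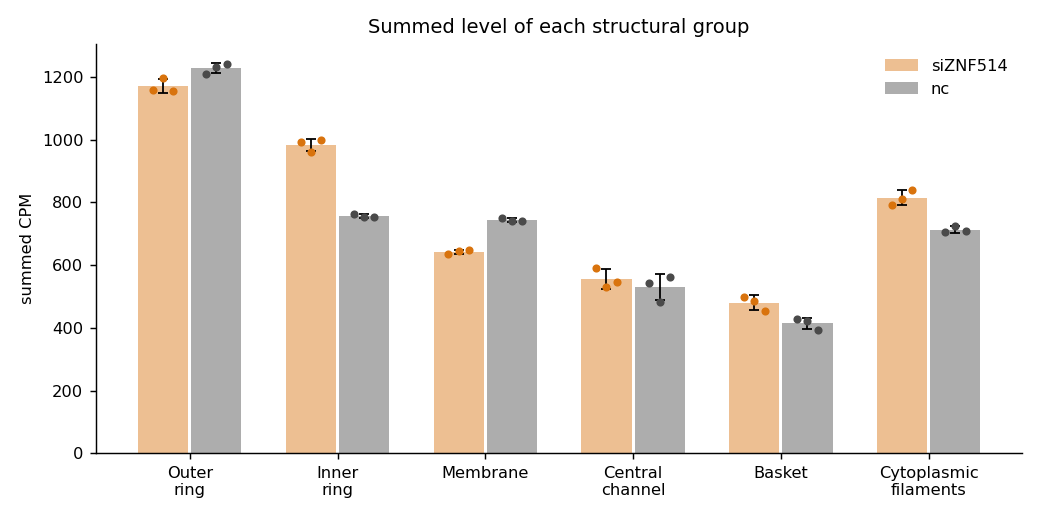
Summed CPM of each structural group in the 3 siZNF514 libraries (left bar of each pair) and the 3 nc libraries (right bar); bars are means, error bars SD and points libraries. The inner ring sum was 983 CPM in siZNF514 against 757 in nc, and the membrane sum 643 against 744.

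Summed over its genes, the inner ring reached 983 ± 20.1 CPM in siZNF514 and 757 ± 5.45 CPM in nc (SD, n = 3 each). The membrane group stood at 643 ± 6.15 CPM in siZNF514 and 744 ± 5.43 CPM in nc. In both groups of genes the siZNF514 and nc libraries did not overlap. The outer ring sum was 1170 ± 22.0 CPM in siZNF514 and 1227 ± 15.5 CPM in nc, also without overlap. Basket genes summed to 480 ± 24.2 CPM in siZNF514 and 414 ± 17.9 CPM in nc, and filament genes to 814 ± 23.8 CPM and 713 ± 11.3 CPM in the same order. The channel sums, 556 ± 31.0 CPM in siZNF514 and 529 ± 41.4 CPM in nc, overlapped. Over all 32 genes the sum was 4647 ± 21.0 CPM in siZNF514 and 4385 ± 24.6 CPM in nc, but this direction depended on the scaling: as a share of all counts, the same genes made up 0.444% ± 0.00408 in siZNF514 and 0.457% ± 0.00358 in nc. The scaffold sum was 2154 ± 3.02 CPM in siZNF514 and 1984 ± 10.1 CPM in nc, but with total counts in place of TMM it was 2058 ± 7.13 and 2069 ± 4.97 in that order, and the groups overlapped. With total counts the basket sums overlapped too (458 ± 24.8 in siZNF514 and 432 ± 19.5 in nc).

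Promoter sequence from RefSeq (GRCh38.p14) was held for 29 of the 32 genes, in 37 windows of 300 bases, 250 before and 50 after a transcript start; NUP43, GLE1 and AHCTF1 had no entry. The motifs searched, on both strands, were the CCAAT box (CCAAT), an ETS site (CCGGAAG), an NRF1 half-palindrome (GCATGCGC), the SP1 GC box (GGGCGG), a YY1 site (AAGATGG), the CRE (TGACGTCA), an E2F site (TTTNGCGC), the CHR (TTTGAA) and the E-box (CACGTG); none lies within another, though ends can overlap, as in the AAG shared by the ETS and YY1 letters. The ETS letters occurred in 13 pore genes (44.8%), against 12.2% of all 27305 genes with a window and 23.0% of the tested ones. They were held by 4 of 12 genes that rose, 4 of 6 that fell and 5 of 11 that did not pass. CCAAT occurred in 11 pore genes (37.9%), against 39.7% of all genes and 43.2% of the tested ones. It was held by 6 of the 12 that rose, 1 of the 6 that fell and 4 of the 11 others. The CHR letters were in 8 pore genes (27.6%, against 18.2% of all genes and 13.4% of tested genes). The GC box was in 14 (48.3% against 48.3%, and 76.8% of tested genes). The YY1 letters were found in 4 genes (13.8%, against 9.62% of tested genes). The NRF1 and CRE letters were in 3 each (10.3%, against 6.42% and 3.83% of tested genes). The E2F and E-box letters were in 2 each (6.90%, against 3.58% and 12.6% of tested genes). A match is a run of letters, and binding was not measured. The 250 bases before the start are shown for genes among those that fell or rose most and that hold the ETS or CCAAT letters, with the ETS match in capitals for NUP54 (chr4:76148398-76148647, minus strand) and SEC13 (chr3:10321113-10321362, minus strand), and the CCAAT match, read on the other strand as ATTGG, in capitals for NUP88 (chr17:5419663-5419912, minus strand) and NUP107 (chr12:68686728-68686977, plus strand).
NUP54: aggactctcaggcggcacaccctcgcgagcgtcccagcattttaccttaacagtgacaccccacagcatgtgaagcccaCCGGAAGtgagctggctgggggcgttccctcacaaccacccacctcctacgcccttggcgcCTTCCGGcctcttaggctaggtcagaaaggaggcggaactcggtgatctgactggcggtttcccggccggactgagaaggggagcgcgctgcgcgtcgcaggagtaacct
SEC13: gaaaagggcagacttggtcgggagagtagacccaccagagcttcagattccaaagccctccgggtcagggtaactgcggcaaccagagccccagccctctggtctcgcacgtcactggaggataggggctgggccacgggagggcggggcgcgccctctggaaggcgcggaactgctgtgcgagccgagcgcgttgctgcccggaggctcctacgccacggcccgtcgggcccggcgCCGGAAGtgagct
NUP88: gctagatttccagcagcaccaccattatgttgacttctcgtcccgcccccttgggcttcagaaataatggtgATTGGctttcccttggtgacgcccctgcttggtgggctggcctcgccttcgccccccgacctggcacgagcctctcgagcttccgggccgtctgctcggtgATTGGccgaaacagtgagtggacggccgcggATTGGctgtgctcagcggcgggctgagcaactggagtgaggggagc
NUP107: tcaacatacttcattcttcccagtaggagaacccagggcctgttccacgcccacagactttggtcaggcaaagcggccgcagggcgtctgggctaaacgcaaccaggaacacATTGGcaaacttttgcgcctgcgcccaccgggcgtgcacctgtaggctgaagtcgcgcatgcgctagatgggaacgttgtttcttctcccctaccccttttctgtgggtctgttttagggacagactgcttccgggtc
NUP54 held 2 ETS matches in these bases and SEC13 held 1, while NUP88 held 3 CCAAT matches and NUP107 held 1. The bases of NUP88 and NUP107 also held the ETS letters, read as CTTCCGG and left in lower case. NUP54 and SEC13 had no CCAAT match. The starts are those of RefSeq transcripts, and the gene positions deposited with the counts differ from them. By those positions the NUP88 window lies wholly inside the gene (5360963 to 5420160), and most of the NUP107 window does (gene from 68686734). Parts of the NUP54 and SEC13 windows also lie inside their genes, which reach up to 76148515 and 10321178.

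In the outer ring, the Y-complex genes NUP107, NUP37 and NUP133 rose, and the genes of NUP43, SEC13 and AHCTF1 fell. NUP107, a stem subunit of the Y, had 215, 219 and 210.0 CPM in siZNF514 against 160.3, 156 and 161 CPM in nc. NUP37, a small propeller protein that binds the NUP160 arm, had 82.1, 91.5 and 88.1 CPM in siZNF514 against 70.6, 65.9 and 63.4 CPM in nc. The 2 genes did not overlap between groups and rose by 0.43 (SE 0.040, adjusted p = 0.000152) and 0.39 (SE 0.065, adjusted p = 0.00226) on the log2 scale in the edgeR test. NUP133, at the far end of the stem, had 87.6, 79.6 and 75.8 CPM in siZNF514 against 69.7, 71.3 and 64.0 CPM in nc. Its rise of 0.25 (SE 0.073, adjusted p = 0.0264) had the largest adjusted p of the 12. It lost its call without replicate 1 of nc (0.26, adjusted p = 0.0523), replicate 3 of nc (0.20, adjusted p = 0.0784) or replicate 1 of siZNF514 (0.19, adjusted p = 0.0649), and with total counts (0.12, adjusted p = 0.224).

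NUP43, a propeller protein on the short arm of the Y next to NUP85, showed the largest change of any pore gene. It had 82.2, 74.7 and 75.3 CPM in siZNF514 against 163, 152 and 164 CPM in nc. The siZNF514 mean was 48.5% of the nc mean, with no overlap of libraries, and the log2 fold change was -1.04 (SE 0.057, adjusted p = 2.03e-05 by edgeR). NUP43 (ENSG00000120253) lies on chromosome 6, 149724315 to 149749665, minus strand. By the gene positions deposited with the counts (hg38), it overlaps 223 bases of PCMT1 on the other strand. PCMT1 had 1794, 1813 and 1865 counts in siZNF514 against 1429, 1681 and 1354 in nc. The strand setting of the counting is not given, and the part of PCMT1 in the result was not tested.

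SEC13 is shared between the Y complex and the COPII coat of vesicles that leave the endoplasmic reticulum. It had 59.2, 68.5 and 66.8 CPM in siZNF514 against 84.7, 94.8 and 102 CPM in nc. The groups did not overlap, with a log2 fold difference of -0.53 (SE 0.087, adjusted p = 0.00207 by edgeR). SEH1L, its close relative in the Y complex and also a subunit of the GATOR2 complex of nutrient signalling, had 80.0, 96.4 and 81.6 CPM in siZNF514 against 88.1, 113 and 115 CPM in nc. Replicate 1 of nc lay inside the siZNF514 range, and the value of -0.29 (SE 0.12, adjusted p = 0.0768) did not pass, although it passed under 9 of 16 alternatives, among them total counts (-0.42) and the replicate block (-0.29). AHCTF1, also named ELYS, binds chromatin and starts pore assembly after mitosis. Its levels were 161, 155 and 155 CPM in siZNF514 against 195, 199.96 and 185 CPM in nc, a log2 fold difference of -0.30 (SE 0.046, adjusted p = 0.00146 by edgeR). Its pseudogene AHCTF1P1, which holds 48.0% of the 50-base words of the AHCTF1 transcript, had 533, 497 and 525 counts in siZNF514 against 593, 634 and 566 in nc. With both summed, the value was -0.28 (adjusted p = 0.00158). NUP160 ranged from 331 to 346 CPM in siZNF514 and from 318 to 320.5 CPM in nc without overlap, but its value of 0.085 (SE 0.033, adjusted p = 0.0680) did not pass and turned to -0.042 with total counts. NUP85 differed by 0.031 (SE 0.068) and was also not past the threshold.

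In the inner ring, NUP205, NUP93, NUP188 and NUP155 rose and NUP35 did not pass. NUP205 and NUP188 are large paralogous proteins that bind the linker NUP93, and NUP155 touches the membrane. NUP205 had 272, 259 and 279 CPM in siZNF514 against 188, 184 and 179.9 CPM in nc. NUP188 followed with 275, 268 and 274 CPM in siZNF514 against 206, 219 and 212 CPM in nc. NUP93 had 175, 174 and 184 CPM in siZNF514 against 133, 132 and 138 CPM in nc. For these genes the lowest siZNF514 library was well above the highest nc library. The log2 fold changes were 0.55 (SE 0.044, adjusted p = 8.43e-05), 0.36 (SE 0.039, adjusted p = 0.000319) and 0.40 (SE 0.045, adjusted p = 0.00034) for NUP205, NUP188 and NUP93 by edgeR. NUP155 had 227, 217 and 213 CPM in siZNF514 against 194, 182 and 184 CPM in nc, a rise of 0.23 (SE 0.046, adjusted p = 0.00501); with total counts it was 0.10 and did not pass (adjusted p = 0.112). NUP35, a membrane-binding partner of NUP93 and NUP155, had 40.7, 43.5 and 48.2 CPM in siZNF514 against 41.8, 37.4 and 37.8 CPM in nc. Its groups overlapped (0.18, SE 0.084, adjusted p = 0.113). NUP188 overlaps 61 bases of SH3GLB2 on the other strand, which had 1243, 1187 and 1191 counts in siZNF514 against 824, 1133 and 948 in nc.

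Among the membrane proteins, both POM121 copies fell, NUP210 rose and NDC1 did not pass. POM121 and POM121C, near-identical copies of a membrane protein with a repeat-rich tail, lie on chromosome 7, and their upstream bases were aligned because the genes fell together. Over 236 aligned bases, 226 (95.8%) were identical. The 250 bases before the start are given with the bases in capitals that differ from the other copy or that the other copy lacks in these 250 bases, for POM121 (chr7:72879107-72879356, plus strand) and POM121C (chr7:75486300-75486549, minus strand), from RefSeq on GRCh38.p14.
POM121: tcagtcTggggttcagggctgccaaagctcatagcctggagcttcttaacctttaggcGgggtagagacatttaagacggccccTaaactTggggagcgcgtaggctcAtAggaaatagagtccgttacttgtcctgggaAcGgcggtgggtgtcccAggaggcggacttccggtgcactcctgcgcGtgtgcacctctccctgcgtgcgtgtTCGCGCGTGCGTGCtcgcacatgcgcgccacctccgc
POM121C: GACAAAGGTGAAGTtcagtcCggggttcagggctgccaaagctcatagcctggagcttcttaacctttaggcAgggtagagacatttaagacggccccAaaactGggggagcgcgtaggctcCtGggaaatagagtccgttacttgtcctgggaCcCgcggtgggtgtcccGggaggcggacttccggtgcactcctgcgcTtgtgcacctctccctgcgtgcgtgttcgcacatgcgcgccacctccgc
POM121 had 64.9, 59.0 and 69.4 CPM in siZNF514 against 106, 110.4 and 119 CPM in nc. POM121C was higher in both groups, with 153, 158 and 154 CPM in siZNF514 against 243, 251 and 243 CPM in nc. Neither copy overlapped between groups, and the log2 fold changes were -0.79 (SE 0.075, adjusted p = 0.000178) and -0.66 (SE 0.038, adjusted p = 2.5e-05) by edgeR. Of the 50-base words in the longest coding transcript, 25.7% of those of POM121 also occurred in POM121C and 52.1% of those of POM121C in POM121, so the split between copies is uncertain. Summed as 1 gene they fell by 0.70 on the log2 scale (adjusted p = 1.64e-05). POM121B, a further related locus at low level, had 12, 10 and 18 counts in siZNF514 against 26, 29 and 24 in nc, with a log2 fold difference of -0.96 (SE 0.25, adjusted p = 0.0165).

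NUP210, the large membrane glycoprotein gp210, went the other way, with 235, 239.6 and 249 CPM in siZNF514 against 204, 192 and 181 CPM in nc. The libraries did not overlap (0.33, SE 0.053, adjusted p = 0.00212 by edgeR). NDC1, which spans the membrane and anchors the ring, had 182, 188 and 175 CPM in siZNF514 against 197, 186 and 199 CPM in nc. The groups overlapped and the value of -0.094 (SE 0.048, adjusted p = 0.146) did not pass, although with total counts it was -0.22 and passed.

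**Figure D3:**
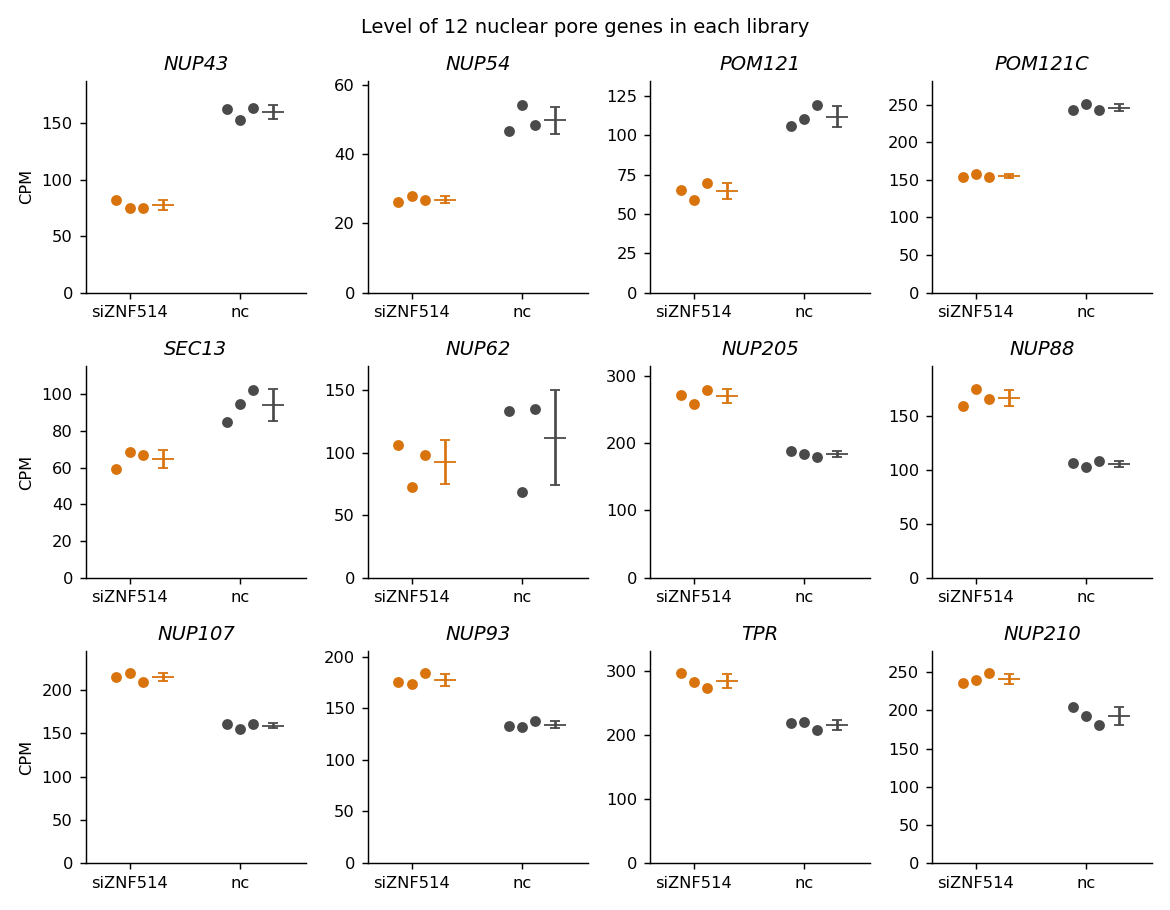
CPM of 12 genes in each library, siZNF514 on the left and nc on the right of each panel; points are libraries, and the horizontal mark and bar are the mean and SD. For NUP62 the middle point, replicate 2, is low in both groups and the groups overlap; in the other 11 panels the groups do not overlap.

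In the central channel, NUP54 fell and its partner NUP58 rose. NUP54, NUP58 and NUP62 form the repeat-rich complex that lines the channel. NUP54 had 26.1, 27.9 and 26.7 CPM in siZNF514 against 46.8, 54.2 and 48.6 CPM in nc, a log2 fold difference of -0.89 (SE 0.076, adjusted p = 0.000113 by edgeR). NUP58 had 285, 266 and 268 CPM in siZNF514 against 218, 203 and 223 CPM in nc, a rise of 0.35 (SE 0.050, adjusted p = 0.00114). Both were clear of overlap, in opposite directions. NUP62 had 107, 72.8 and 98.6 CPM in siZNF514 against 133, 68.6 and 135 CPM in nc. Replicate 2 was low in both groups, and the value of -0.27 (SE 0.26, adjusted p = 0.420) did not pass. Without replicate 2 of nc it was -0.53 and passed. IL4I1, which overlaps NUP62 on the same strand, had 8, 0 and 3 counts in siZNF514 against 4, 0 and 8 in nc, also lowest in replicate 2 of each group; its part in the result was not tested. NUP98, a mobile repeat protein whose gene also encodes the Y-complex protein NUP96, differed by 0.098 (SE 0.058, adjusted p = 0.199).

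In the basket, TPR rose while NUP153 and NUP50 did not pass. TPR, the coiled-coil protein that builds the basket filaments, had 296, 282 and 274 CPM in siZNF514 against 219, 220.2 and 207 CPM in nc, without overlap (0.40, SE 0.046, adjusted p = 0.000423 by edgeR). NUP153, which anchors the basket to the pore, had 131, 136 and 122 CPM in siZNF514 against 128, 131 and 124 CPM in nc. NUP50, a soluble partner of NUP153 that helps to unload importin cargo, had 72.4, 68.1 and 57.5 CPM in siZNF514 against 80.2, 71.3 and 63.4 CPM in nc. Their values were 0.024 (SE 0.055, adjusted p = 0.733) and -0.12 (SE 0.11, adjusted p = 0.418), and both pairs of groups overlapped.

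Of the cytoplasmic filament genes, NUP88 and RAE1 rose, RANBP2 and NUP42 fell, and NUP214, GLE1 and AAAS did not pass. NUP88, partner of the repeat protein NUP214, had 159.6, 175 and 166 CPM in siZNF514 against 106, 103 and 108 CPM in nc. This was the largest rise among the pore genes, at 0.66 (SE 0.050, adjusted p = 6.96e-05 by edgeR). RABEP1, which shares 24850 bases with NUP88 on the other strand, had 1488, 1504 and 1498 counts in siZNF514 against 1569, 1755 and 1572 in nc. The part of RABEP1 in the result was not tested. NUP214 itself stood at 129.7, 129.9 and 129 CPM in siZNF514 against 116, 126 and 121 CPM in nc; its groups did not overlap, but the value of 0.096 (SE 0.047, adjusted p = 0.129) did not pass and turned to -0.031 with total counts.

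RAE1, an mRNA export factor that binds NUP98, had 144, 156 and 175 CPM in siZNF514 against 122, 116 and 123 CPM in nc (0.40, SE 0.075, adjusted p = 0.00409). GLE1, which activates the helicase DDX19 in mRNA release, differed by 0.13 (SE 0.055, adjusted p = 0.0783), and without replicate 2 of nc it was 0.18 and passed. NUP42, the small repeat protein that binds GLE1, had 33.3, 31.2 and 34.3 CPM in siZNF514 against 40.3, 42.4 and 41.0 CPM in nc. It fell by 0.32 on the log2 scale (SE 0.065, adjusted p = 0.00518), with no overlap. AAAS, or aladin, which is held at the pore by NDC1, had 65.4, 63.2 and 76.4 CPM in siZNF514 against 53.9, 64.8 and 52.6 CPM in nc. Its value of 0.26 (SE 0.11, adjusted p = 0.0794) did not pass, and without replicate 2 of nc it was 0.36 and passed.

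RANBP2, also named NUP358, carries a SUMO ligase and RAN-binding domains on the filaments, and its call rested on how paralogs were treated. It had 129, 131 and 132 CPM in siZNF514 against 155, 150.4 and 149 CPM in nc, a log2 fold difference of -0.22 (SE 0.041, adjusted p = 0.00394 by edgeR). The RGPD genes are its partial copies, and 27.1% of the 50-base words of its transcript also occur in other genes, RGPD3 at 20.1% the most. RGPD5 rose, with 424, 418 and 418 counts in siZNF514 against 236, 306 and 240 in nc (0.71, SE 0.088, adjusted p = 0.000578). RGPD6 rose too, with 28, 41 and 37 counts in siZNF514 against 16, 16 and 16 in nc (1.15, SE 0.22, adjusted p = 0.00429). Counts of all RGPD genes came to 30.4%, 30.2% and 27.9% of those of RANBP2 in siZNF514 against 15.08%, 17.02% and 15.03% in nc. With RANBP2 and the RGPD genes summed, the value was -0.053 (adjusted p = 0.285) and the call was lost. Of the 7 RGPD genes, 4 were tested, and RGPD8 (0.54) and RGPD3 (-0.11) did not pass.

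Levels between genes were compared per length, as FPKM, the count divided by gene length and total count with no TMM scaling. How that length was set is not given, and it did not follow the longest coding transcript in every gene. SEC13 (1603 bases) had 755 counts and 4.99 FPKM in replicate 1 of siZNF514. NDC1 (5134 bases) had 2319 counts and 31.8 FPKM in that library. The order below therefore rests on the deposited lengths and may differ by transcript length. NDC1 was the highest pore gene in both groups, at 31.6 ± 1.21 FPKM in siZNF514 and 36.8 ± 1.39 FPKM in nc (SD, n = 3 each). GLE1 came next, at 29.5 ± 1.20 FPKM in siZNF514 and 29.4 ± 1.47 FPKM in nc. In siZNF514 the libraries of NDC1 and GLE1 overlapped, whereas in nc they did not. NUP43 was the gene that moved farthest down the order, to 16th in siZNF514 (12.4 ± 0.730 FPKM), against 3rd in nc (27.9 ± 1.11 FPKM). In siZNF514 its neighbours POM121C (12.7) and AHCTF1 (12.4) did not differ from it beyond the spread, and in nc neither did GLE1 (29.4) nor NUP160 (27.5). NUP160, NUP188, NUP210 and NUP205 followed GLE1 in siZNF514, at 26.7, 26.3, 25.9 and 25.7 FPKM, each overlapping the next. A gap to RAE1 at 19.4 FPKM came after them. At the low end, NUP54 and NUP42 were last in siZNF514, at 2.83 ± 0.0863 and 3.0001 ± 0.148 FPKM, and overlapped. In nc NUP42 was last at 4.10 ± 0.0984 FPKM and NUP54 stood 28th at 5.72 ± 0.431 FPKM, overlapping NUP35 (6.30) above and NUP62 (5.59) below. The scaling of libraries does not affect the order within a group.

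**Figure D4:**
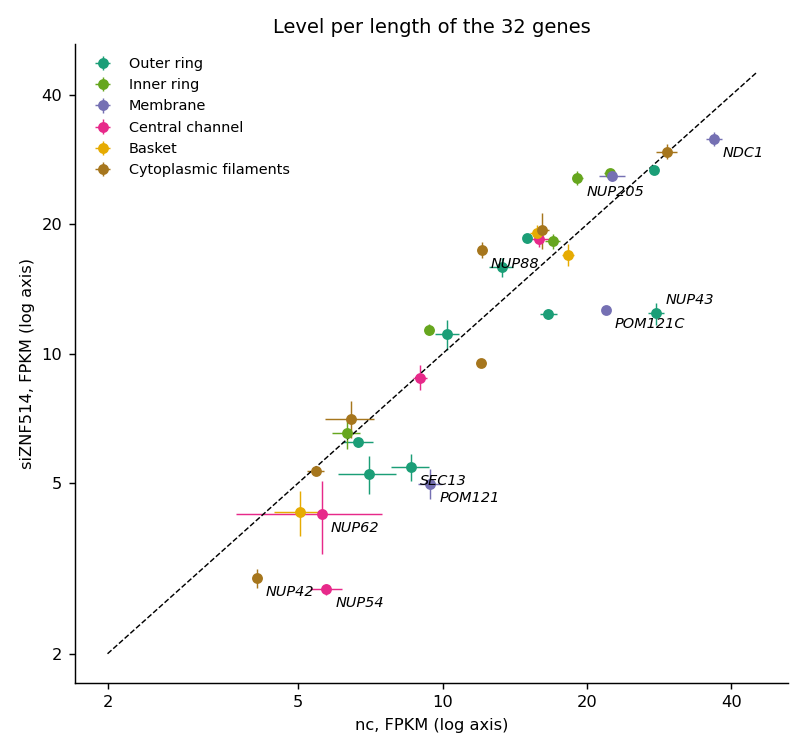
Mean FPKM of each gene in siZNF514 (vertical, log axis) against nc (horizontal, log axis), with SD bars over 3 libraries and colours by structural group; the dashed line marks equal values. NUP43, at 12.4 FPKM in siZNF514 against 27.9 in nc, and POM121C lie far below the line among the genes of high FPKM in nc, and NUP54 among those of low FPKM.

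Ratios of genes whose proteins bind each other do not depend on the scaling of libraries. Their size rests on the deposited gene lengths, but the difference between groups on the log2 scale does not. Of 12 such pairs, chosen from known contacts, 7 (58.3%) did not overlap between groups, and none was tested. By CPM, 60.3% of all single genes tested did not overlap. That is another measure, and no share was taken over other pairs of genes. The NUP54 to NUP58 ratio of FPKM was 0.142, 0.163 and 0.154 in siZNF514 against 0.333, 0.414 and 0.338 in nc, a difference of -1.24 on the log2 scale. NUP43 to NUP85 was 2.19, 1.88 and 1.91 in siZNF514 against 4.33, 4.30 and 3.97 in nc, a difference of -1.077. These were the largest shifts of the set. SEC13 to NUP98, whose gene encodes the Y-complex partner NUP96, was 0.621 ± 0.0781 in siZNF514 and 0.956 ± 0.0624 in nc. NUP88 to NUP214 was 3.28 ± 0.148 in siZNF514 and 2.23 ± 0.135 in nc, and TPR to NUP153 was 1.12 ± 0.0519 in siZNF514 and 0.864 ± 0.0095 in nc. NUP37 to NUP160 was 0.595 ± 0.0196 in siZNF514 and 0.482 ± 0.0274 in nc. In the inner ring, NUP205 to NUP93 shifted by 0.15 (2.26 ± 0.0452 in siZNF514 and 2.04 ± 0.0894 in nc). NUP188 to NUP93 was 2.31 ± 0.0619 in siZNF514 and 2.38 ± 0.104 in nc, with overlap. The ratios SEH1L to NUP85, NUP62 to NUP58, RAE1 to NUP98 and AAAS to NDC1 also overlapped.

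**Figure D5:**
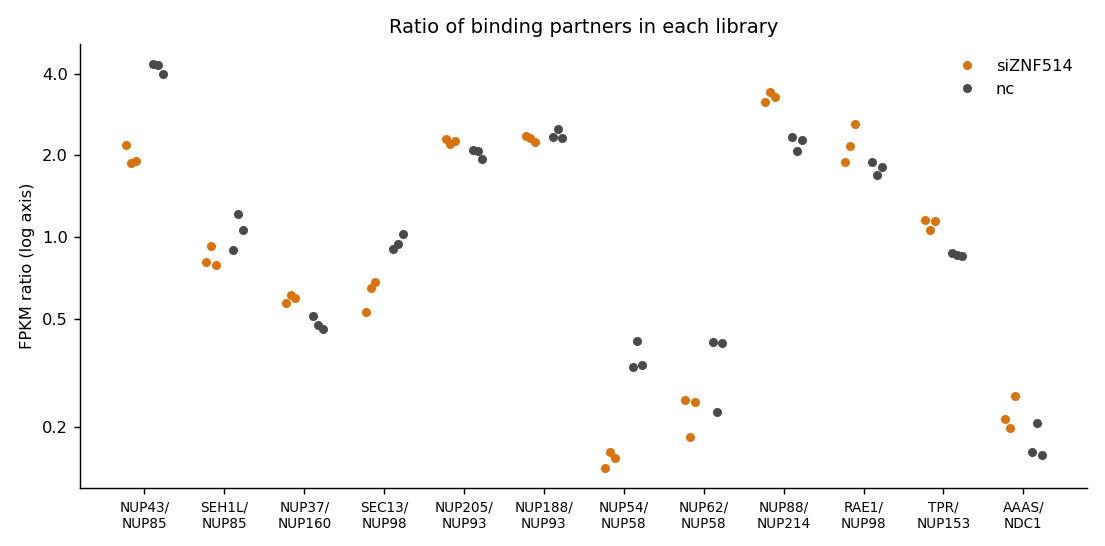
FPKM ratio of 12 pairs of genes with binding proteins in each library (log axis), siZNF514 left and nc right in each pair. NUP43/NUP85 is near 2 in siZNF514 and near 4 in nc, and NUP54/NUP58 has all siZNF514 points below all nc points.

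Other genes of nuclear transport moved in both directions too. Of 18 importins tested (of 19 listed), 8 rose and 3 fell, with a median log2 fold change of 0.094; of all genes tested, 25.5% rose and 25.1% fell. KPNA2, an importin alpha adaptor, rose to 330.2 ± 9.42 CPM in siZNF514 against 217 ± 22.2 CPM in nc (0.60, SE 0.073, adjusted p = 0.000503), whereas the adaptor KPNA3 fell to 54.6 ± 4.35 CPM in siZNF514 against 111 ± 6.18 CPM in nc (-1.02, SE 0.074, adjusted p = 5.76e-05). KPNB1, the importin beta carrier, rose by 0.18 (SE 0.049, adjusted p = 0.0197), TNPO1 by 0.57, and IPO13 fell by 0.57 on the log2 scale. Of 7 exportins tested (of 8), 3 rose and 1 fell: XPO1, the main protein exporter, rose by 0.34 (SE 0.060, adjusted p = 0.00322), XPO6 by 0.41 and XPO7 by 0.37, and the tRNA exporter XPOT fell by 0.33 on the log2 scale. CSE1L, which returns importin alpha to the cytoplasm, differed by -0.054 and did not pass.

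In the RAN cycle, 4 of 10 genes rose and 1 fell. NUTF2, which carries RAN into the nucleus, rose to 291 ± 7.55 CPM in siZNF514 against 167 ± 37.6 CPM in nc (0.80, SE 0.15, adjusted p = 0.00416), and RCC2 fell to 143 ± 2.26 CPM in siZNF514 against 239.6 ± 3.82 CPM in nc (-0.74, SE 0.038, adjusted p = 1.72e-05). RANGAP1, the RAN GTPase activator bound to RANBP2 on the filaments, rose by 0.31. RAN (0.058), RANBP1 (0.091) and the exchange factor RCC1 (-0.32) did not pass. Of 22 mRNA export genes tested (of 23), 5 rose and 6 fell. The adaptor ALYREF (0.45) rose, and NXF1 (-0.35) and MCM3AP (-0.39), the scaffold of the pore-bound TREX-2 complex, fell. Genes of the THO complex were mixed: THOC3 (0.46) and THOC5 (0.34) rose and THOC6 (-0.42) fell. THOC1 (0.068), THOC2 (-0.051) and THOC7 (0.11) did not pass.

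Among 18 genes of the nuclear lamina and envelope, 7 rose and 4 fell. TOR1A, an ATPase of the envelope lumen, fell to 48.8 ± 1.08 CPM in siZNF514 against 107 ± 2.58 CPM in nc (-1.14, SE 0.048, adjusted p = 8.64e-06). SUN2 (0.56) and SUN1 (0.32), which bridge the inner and outer membranes, and LBR (0.20) rose, LMNB2 (-0.34) fell, and LMNB1 (-0.14) did not pass. Of 6 other pore-associated genes tested (of 9), the SUMO protease SENP1 (-0.48) and POM121B fell and none rose; TMEM33 (-0.29), SENP2 (-0.18) and the others did not pass. With the RGPD genes included, 29 of the 85 list genes tested rose and 17 fell (54.1% called, near the 50.6% of all genes). With total counts 20 were higher and 31 lower, so the balance of directions rested on the scaling.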

How the data were processed

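Whole-number counts and FPKM per gene were deposited by the authors in 1 table, with a column of each for 6 libraries. Per the labels, TRIzol RNA was made into VAHTS libraries and read on a NovaSeq. Per the submitters' processing notes, the build was hg38 and the tools included StringTie 1.3.3b, HISAT2 2.0.4 and edgeR; neither annotation release nor strand setting is given. The deposited FPKM values equalled count over total count and a fixed length per gene within 0.0790% across libraries, so they carry no further scaling. How those lengths were set is not given.

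Counts were filtered with filterByExpr (minimum count 10, minimum total 15), scaled by TMM and tested with the edgeR 4.0.16 quasi-likelihood F test (R 4.3.3) with Benjamini-Hochberg adjustment over 14250 genes at 0.05. The SE is the size of the log2 fold change over the square root of F. At least 99.8% of each library's counts were tested. Shared 50-base words were counted in GENCODE v29 transcripts. The code was tested on simulated data.

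All 32 pore genes were named, with ZNF514, 12 chosen transport and envelope genes and up to 4 genes of smallest p in each list. Paralogs and overlapping genes were added with their counts, and the other THO genes with their fold changes. Not every gene taken in by this rule is reported here. The pore genes, lists, pairs and motifs were chosen with earlier results of these data known. Alternatives were a replicate block, each library left out, DESeq2 1.42.0 size factors and Wald test, total counts, a looser filter and a mean count of at least 50, and limma 3.58.1 on log2(FPKM + 0.1), with pseudocounts of 1 and 0.01 and a mean FPKM of at least 0.5. Other placements of AAAS, NUP98 and AHCTF1 and sums over paralogs were also tried; the sum of AHCTF1 and AHCTF1P1 and the group sums scaled by total counts were chosen after seeing the data. Replicate pairs within a group differed by more than sampling noise (chi-square per degree of freedom 8.02 to 10.4).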

Additional observations from a re-analysis of the deposited data

How the results depend on the processing

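Of the 20 pore genes called, 17 kept their call and direction under every alternative run on them; NUP133, NUP155 and RANBP2 lost theirs, and none reversed. The count of higher and lower pore genes was 14 and 9 by the DESeq2 Wald test and 10 and 10 with total counts or by limma. Leaving out 1 library gave 11 to 14 higher and 8 to 9 lower. The genes that gained a call were SEH1L, NDC1, NUP160, NUP62, GLE1 and AAAS, each under at least 1 alternative. The replicate number did not pair the libraries (correlations of same-numbered deviations 0.0075, 0.041 and -0.036), and a fit with it as a block gave 12 higher and 9 lower pore genes, adding SEH1L at -0.29.

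The list counts were 29 higher and 17 lower. By limma, 18 were higher with a mean FPKM of at least 0.5 and 19 with a pseudocount of 1, while 31 were lower with that FPKM minimum, 30 with each pseudocount of 0.01, 0.1 and 1, and 31 with total counts.

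The medians by structure moved more. The scaffold median was 0.077 by limma with pseudocounts of 0.01 and 0.1 and with the FPKM minimum, 0.071 with a pseudocount of 1, 0.078 with total counts, 0.17 at a mean count of at least 50, 0.22 with no filter, 0.23 with AHCTF1 in the basket and 0.18 to 0.25 with 1 library left out. The membrane median was -0.50 by limma with pseudocounts of 0.01 and 0.1 and with the FPKM minimum, -0.48 with a pseudocount of 1, -0.50 with total counts, -0.41 at a mean count of at least 50, -0.36 with no filter, -0.094 with AAAS among the membrane genes, and -0.39 to -0.35 with 1 library left out. For the central channel the values were -0.19 by limma with the lower pseudocounts and the FPKM minimum, -0.16 with a pseudocount of 1, -0.21 with total counts, -0.27 without NUP98 and -0.21 to -0.0029 with 1 library left out. The basket median turned from 0.024 to -0.10 by limma with the lower pseudocounts and the FPKM minimum, -0.097 with a pseudocount of 1, -0.10 with total counts, -0.011 at a mean count of at least 50, -0.047 with AHCTF1 added and -0.0044 without replicate 2 of siZNF514, in a range of -0.0044 to 0.076 with 1 library left out. The filament median was 0.0087 by limma with the lower pseudocounts and the FPKM minimum, 0.0084 with a pseudocount of 1, 0.0073 with total counts, 0.099 at a mean count of at least 50, 0.098 with NUP98 in place of AAAS and 0.11 to 0.18 with 1 library left out.

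Among pore genes that did not pass, 5 reversed. NUP160 was -0.041 by limma (-0.040 with a pseudocount of 1) and -0.042 with total counts, NUP98 was -0.028 to -0.029 by limma (-0.026 with a pseudocount of 1) and -0.028 with total counts, and NUP214 was -0.029 (-0.025 with a pseudocount of 1) and -0.031. NUP85 was -0.092 or -0.093 by limma (-0.081 with a pseudocount of 1), -0.096 with total counts, -0.0039 at a mean count of at least 50 and -0.015 without replicate 2 of nc, in a range of -0.015 to 0.094 with 1 library left out. NUP153, the middle basket gene, took the basket median's -0.10, -0.097, -0.011 and -0.0044. Total counts and FPKM shift all genes downward by construction, and the cause of the other moves was not tested. The lowest count of a pore gene in any library was 333, and whether depth limited a result was not tested. With 3 libraries a group, the precision is limited.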
